A study of Rattus norvegicus with 6 samples.

Results

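The clock genes described here are 10 genes of the circadian oscillator and its immediate outputs, Nr1d1, Nr1d2, Per1, Per2, Per3, Cry1, Dbp, Tef, Noct and Npas2, measured in rat liver. They were chosen by symbol: every probe set (the group of probes that reports on 1 transcript) whose only gene symbol in the platform annotation is one of these names was taken, which gave 16 probe sets for the 10 genes, out of 14217 genes with a symbol of their own on the array. All animals were male Sprague Dawley rats of 210 to 230 g kept with lights on for 12 h and off for 12 h a day and fed freely. They received tienilic acid (TA), a diuretic that was taken off the market after cases of liver injury, by gavage at 100 mg/kg in sodium bicarbonate, or sodium bicarbonate alone as the vehicle. Livers were taken at 6 h, after 1 dose of TA or vehicle, or at 24 h, after doses at 0 h and 16 h, so that the last dose lay 6 h or 8 h before sampling. Each time had 2 TA arrays, each of 1 animal, and 1 vehicle array of RNA pooled from 2 rats. The clock hour of dosing and sampling is not given in the labels, and the 2 samplings lay 18 h apart as counted from the first dose.

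The circadian clock of liver cells is a loop of transcription and repression that runs about once a day. CLOCK or its relative NPAS2 pairs with BMAL1 and switches on genes with E-box sequences, among them the Per and Cry genes, whose proteins then repress that same pair. The nuclear receptors NR1D1 and NR1D2 (REV-ERB alpha and beta), which are also driven by E-boxes, repress Bmal1 through elements shared with the activating ROR receptors, and the factors DBP, TEF and HLF pass the rhythm on to output genes through D-boxes. In mouse and rat liver these RNAs peak at different times of day, and the Nr1d and Dbp genes peak earlier than Per2 and Cry1.

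These elements are printed here because they are the sequences through which the genes of the loop are known to act on each other. The windows searched ran from 250 bases before to 50 bases after each RefSeq transcript start in the GRCr8 assembly, and 10 windows of 9 of the clock genes were at hand, with none for Cry1. Of these genes, 3 had a match to a motif searched on both strands. Nr1d1 has 2 starts on the minus strand of chromosome 10. At the upstream one, the stretch chr10:84231955-84232012 holds AACGTG, the opposite-strand form of the E-prime-box CACGTT, 174 bases before the start. At the other, chr10:84229629-84229656 holds the E-box CACGTG 191 bases before the start, inside the annotated gene. Per2, on the minus strand of chromosome 9, has CACGTT 62 bases before an internal start, in chr9:99497039-99497066, which lies inside the annotated gene. The D-box TTATGTAA lies 192 bases before that start, in chr9:99497152-99497211, upstream of the gene. Tef has an E-box 198 bases before an internal start on the plus strand, in chr7:115206618-115206645, also inside the gene. Bmal1, the target of the Nr1d receptors, has the ROR element core TAGGTCA 16 bases before an internal start, in chr1:176766301-176766327 on the plus strand, inside the gene. Of the other oscillator genes searched, Cry2, Bhlhe40, Bhlhe41 and Gsk3b also had a match, which is not printed. Most, among them Clock, Rora and Nfil3, had none. The stretches are given 5′ to 3′ on the gene's strand, with the matching motif in capitals.
Nr1d1 upstream start: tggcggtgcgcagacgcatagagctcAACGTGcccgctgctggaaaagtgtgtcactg
Nr1d1 downstream start: gtcagctcccaCACGTGtctggggatcc
Per2 E-prime-box: acgcgcgcggtCACGTTttccactatgt
Per2 D-box: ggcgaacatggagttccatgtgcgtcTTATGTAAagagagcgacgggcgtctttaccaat
Tef E-box: acctggcccagCACGTGtctacatcgtt
Bmal1 ROR element: aaggcagaaagTAGGTCAgggacggag

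Over all 33469 promoter windows, CACGTG was found in 6.42%, CACGTT in 4.83%, a D-box (TTATGTAA or TTACGTAA) in 1.01% and a ROR core (TAGGTCA or TGGGTCA) in 6.6%. The cAMP response element TGACGTCA, found in 1.83% of windows, was in none of the 10 windows of clock genes. The motifs searched do not contain one another. These shares are per window and motif, and the share of windows with any match was not counted. The count of 3 genes with a match thus has no share to be set against. A match describes the letters of the window and is not evidence that a protein binds there.

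The values are the log2 expression values deposited for 6 arrays. Array medians lay between 3.27 and 3.31 and lower quartiles between 2.41 and 2.45, so that values near 2 to 3 form a floor in which differences between low values are compressed. Probe sets with a mean over the 6 arrays above 2.82 were tested, 18625 in all. Of the 16 clock probe sets, 13 passed, at least 1 for each of the 10 genes. Nr1d1 and Noct passed through 1 of the 2 times only, since they lay below 2.82 at the other. Liver identity was checked by 6 measured hepatocyte markers, whose mean per array was 15.37 to 15.46. The vehicle arrays have no replicate, and the spread is that of the 2 TA animals of each time. For Nr1d1 and Noct, 1 of these pairs lay in the floor, which lowers every SE and p-value given for them. The small number of arrays limits every test.

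The time of sampling separated the clock genes in opposite directions. Nr1d1, Nr1d2 and Dbp were at least 2-fold lower on every 24 h array than on every 6 h array. Per2, Cry1 and Noct were at least 2-fold higher on every 24 h array. Over all probe sets tested, 0.14% met the lower and 0.183% the higher rule, by which 4 and 3 clock probe sets were counted. Tef and Npas2 overlapped between the times, and Per1 and Per3 were flat. None of the clock genes passed limma's test after adjustment over all 18625 probe sets, where 1 probe set without a gene symbol passed for the mean time difference (0.00537%). At an unadjusted limma p under 0.05 there were 9 of the 13 clock probe sets, from 7 genes, against 16.8% of all probe sets. The genes were chosen with such results known, so these counts describe them and do not test them.

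**Figure D1:**
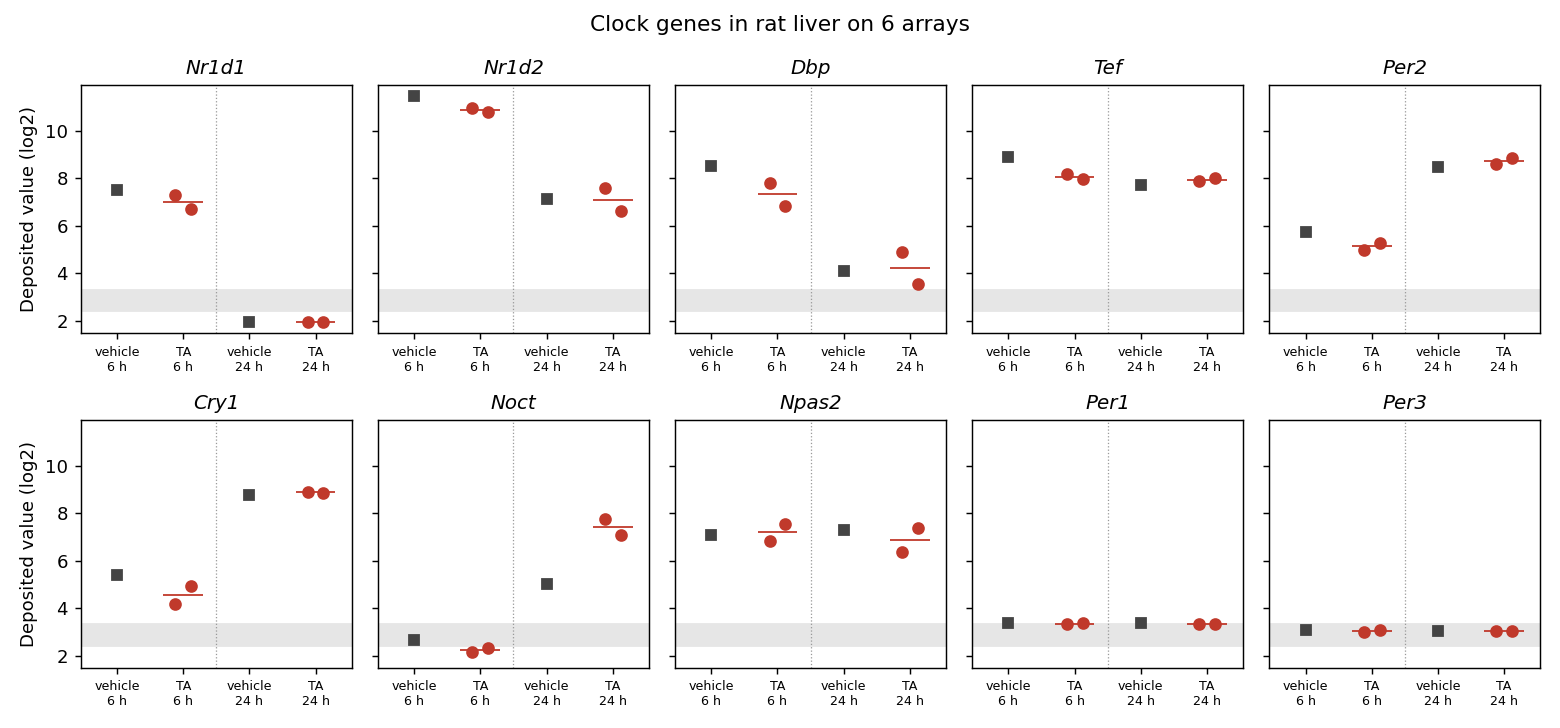
Deposited log2 value of each clock gene on the 6 arrays, 1 panel per gene, with squares for the vehicle pools, circles for single TA animals and a line at the mean of 2 TA animals. The grey band spans 2.41 to 3.31, from the lowest array lower quartile to the highest array median: Nr1d1, Nr1d2 and Dbp sit lower at 24 h, Per2, Cry1 and Noct higher, and Per1 and Per3 stay in the band or at its upper edge on all arrays.

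The repressors of the loop gave the lowest differences. Nr1d1 (probe set 1370816_at, gene at chr10:84224599-84231812 in GRCr8), the gene of REV-ERB alpha, stood at 7.51 in the vehicle pool, 7.30 in TA animal 1 and 6.73 in TA animal 2 at 6 h. At 24 h the pool gave 1.97 and both TA animals 1.96. All 3 arrays of 24 h thus lay in the floor, and the groups were 4.76 apart at their nearest. The difference of 24 h from 6 h, averaged over the vehicle and TA arms, was -5.29 ± 0.19 (SE; limma adjusted p = 0.11). Since the 24 h group lay in the floor, no exact fold can be given. The SD of the TA animals was 0.00021 there against 0.40 at 6 h, so the floor lowered the SE and p-value too. In order of level the vehicle pool of 6 h came first and TA at 6 h (7.01 ± 0.40, SD, n = 2) next. These neighbours differed by little more than the spread of the animals, and the 24 h groups have no order.

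Nr1d2 (gene at chr15:9955034-9981329), the gene of REV-ERB beta, has 3 probe sets. On the one with the highest mean, 1390430_at, it stood at 11.46 in the vehicle pool, 10.97 in TA animal 1 and 10.81 in TA animal 2 at 6 h. At 24 h the pool gave 7.14 and the animals 7.61 and 6.61. The vehicle pool lay between its 2 TA animals at 24 h and above both at 6 h. The mean time difference was -4.05 ± 0.33 (16.6-fold; limma adjusted p = 0.14). The probe set 1370541_at gave 9.46 to 10.01 at 6 h and 5.66 to 6.39 at 24 h. The third, 1370540_at, stayed between 2.48 and 2.53, in the floor, and did not pass the filter.

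Of the D-box factors, Dbp (1387874_at, gene at chr1:105312256-105317205), which carries the clock's rhythm to liver enzymes, followed the Nr1d genes. It stood at 8.51 in the vehicle pool, 7.80 in TA animal 1 and 6.85 in TA animal 2 at 6 h. The 24 h arrays gave 4.09 for the pool and 4.91 and 3.56 for the animals. The times did not overlap, while the animals of a time differed by about as much as they did from their pool. The mean time difference was -3.76 ± 0.54 (13.5-fold; limma adjusted p = 0.15). Tef (1385374_at, gene at chr7:115197180-115221930), a relative of Dbp, stood at 8.89 in the vehicle pool, 8.19 in TA animal 1 and 7.96 in TA animal 2 at 6 h, and at 7.71, 7.87 and 8.0 on the same arrays of 24 h. Its vehicle pool of 6 h stood above the other 5 arrays, which overlapped between the times. The mean time difference of Tef was -0.66 ± 0.11 (limma adjusted p = 0.16), made of -1.18 in the vehicle pools and -0.14 in the TA animals. Its probe set 1390819_at was at 4.42 to 5.35 at 6 h and 4.22 to 4.30 at 24 h, without overlap, and 1369919_at at 2.46 to 2.61, below the filter.

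The negative arm of the loop went the other way. Per2 (1368303_at, gene at chr9:99454828-99497069), whose protein represses the CLOCK and BMAL1 pair, stood at 5.72 in the vehicle pool, 5.0 in TA animal 1 and 5.27 in TA animal 2 at 6 h. At 24 h the pool gave 8.49 and the animals 8.60 and 8.87. All 24 h arrays stood at least 2.76 above all 6 h arrays. The mean time difference was 3.18 ± 0.14 (9.07-fold; limma adjusted p = 0.12). The second Per2 probe set, 1378560_at, was at 4.04, 4.83 and 3.39 at 6 h and at 4.84, 6.22 and 6.37 at 24 h, where the vehicle pools differed by less than 2-fold. The 2 probe sets thus gave the same order of the times with different sizes.

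Cry1 (1392640_at, gene at chr7:20417526-20481791), the partner of the PER proteins in repression, stood at 5.40 in the vehicle pool, 4.19 in TA animal 1 and 4.92 in TA animal 2 at 6 h. The 24 h arrays gave 8.75 for the pool and 8.91 and 8.85 for the animals. The 24 h values lay within 0.16 of each other, closer than those of 6 h, and the times were far from overlapping. The mean time difference was 3.84 ± 0.24 (14.3-fold; limma adjusted p = 0.13). Noct (1377869_at, gene at chr2:137422074-137442282), nocturnin, a phosphatase with a strong daily rhythm in mouse liver, stood at 2.65 in the vehicle pool, 2.17 in TA animal 1 and 2.31 in TA animal 2 at 6 h, in the floor. At 24 h the pool gave 5.02 and the animals 7.74 and 7.06. The 3 levels did not overlap, in the order of 6 h, vehicle at 24 h and TA at 24 h. Its mean time difference was 3.77 ± 0.23 (limma adjusted p = 0.13) against a group in the floor, so no exact fold can be given. The floor lowered this SE and p-value too.

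Npas2 (1383439_at, gene at chr9:48959225-49138036), which can take the place of CLOCK, stood at 7.08 in the vehicle pool, 6.83 in TA animal 1 and 7.54 in TA animal 2 at 6 h. The 24 h arrays gave 7.27 for the pool and 6.38 and 7.39 for the animals. The groups overlapped throughout, with a mean time difference of -0.05 ± 0.40 (limma adjusted p = 1.00). Per1 (1374855_at, gene at chr10:54299002-54313804) and Per3 (1388239_at, gene at chr5:166740914-166778243), the other period genes, spanned 0.036 and 0.058 over the 6 arrays. The second Per3 probe set, 1378745_at, was at 2.69 to 2.93 at 6 h and 2.66 to 2.67 at 24 h, below the filter. All 3 lay near the array medians or lower, where these arrays do not resolve levels, so nothing about the rhythm of Per1 or Per3 can be read from them.

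**Figure D2:**
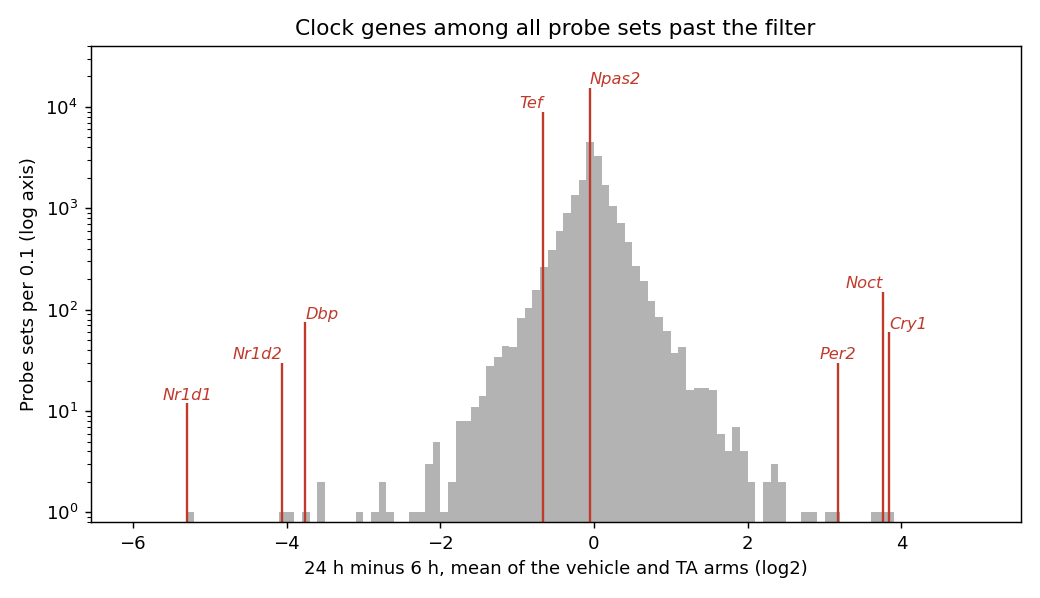
Number of probe sets (log axis) by the difference of 24 h from 6 h, mean of the vehicle and TA arms in log2 units, for the 18625 probe sets tested, with the clock genes marked by red lines whose heights carry no value. Nr1d1, Nr1d2 and Dbp stand at the low end and Per2, Cry1 and Noct at the high end. Npas2 lies within the bulk and Tef on its lower flank, at rank 1190 by size.

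Among the 18625 probe sets ranked by the size of the mean time difference, 7 probe sets of 6 clock genes were in the top 10. Nr1d1 ranked 1, Nr1d2 ranked 2 and 8, Cry1 ranked 4, Noct ranked 5, Dbp ranked 6 and Per2 ranked 10. The other Per2 probe set ranked 107, Tef ranked 1190 and Npas2 ranked 13067. Ranks near each other have no order here, since Nr1d1 and Noct were measured against a group in the floor. The median size of the difference was 3.47 over the 10 clock genes, each by its brightest probe set, and 0.14 over all probe sets. As the genes were chosen with such results known, this describes them and tests nothing.

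The rule by which these 6 genes were singled out fixes the same sign in both arms, and the arms differ in size only. In the vehicle pools, 1 array against 1 array, it was -5.54 for Nr1d1, -4.32 for Nr1d2, -4.42 for Dbp, 2.76 for Per2, 3.35 for Cry1 and 2.37 for Noct. At least 2-fold between the vehicle pools were 3 clock probe sets higher at 24 h, of Per2, Cry1 and Noct, against 1.46% of all probe sets, and 5 lower, of Nr1d1, Nr1d2, Dbp and Tef, against 1.72%. In the TA animals it was -5.05 ± 0.22 for Nr1d1, -3.78 ± 0.38 for Nr1d2 and -3.10 ± 0.62 for Dbp, and 3.60 ± 0.16 for Per2, 4.33 ± 0.28 for Cry1 and 5.16 ± 0.27 for Noct (SE; limma adjusted p from 0.14 to 0.21). The vehicle values are part of what the rule covers and rest on 1 array at each time. For Nr1d1 and Noct they were measured against the floor. The part of TA in the time differences was not tested.

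From the array settings, a first fluidics run held the vehicle pool and TA animal 1 of 6 h, and a second held the remaining 4 arrays. For the vehicle pools, run and time cannot be told apart. Within the second run, TA at 24 h differed from TA animal 2 of 6 h by -4.77 for Nr1d1, -3.70 for Nr1d2 and -2.62 for Dbp. The same values were 3.46 for Per2, 3.97 for Cry1 and 5.09 for Noct. The rule that singled out these 6 genes covers these arrays too and fixes at least 2-fold there, so the values give sizes within 1 run and no check on the run. The times also differed in the number of doses and in the hours since the first dose. Whether they differed in the hour of the day is not given in the labels. The parts of these cannot be told apart.

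Marker lists of 4 other liver cell types had lower mean levels at 24 h. The mean of 4 measured markers of sinusoidal endothelium, of 5 listed, was 9.41 to 9.52 on the 6 h arrays and 8.94 to 9.27 on the 24 h arrays. For 6 of 6 stellate cell and fibroblast markers it was 6.99 to 7.68 against 6.45 to 7.0, with Des below the array median, and for 5 of 6 macrophage markers 9.35 to 9.68 against 9.04 to 9.39. For 3 of 4 cholangiocyte markers it was 6.28 to 6.67 against 5.81 to 6.23, with Krt7 below the array median. For 2 of 4 neutrophil markers it was 3.85 to 4.44 against 3.87 to 4.64, and for 2 of 3 red blood cell markers 11.74 to 12.12 against 11.39 to 12.56, both overlapping. Of 4 T and NK cell markers, 3 lay below the array median. The endothelial and cholangiocyte means did not overlap between the times, and the stellate cell and macrophage means did. Within the endothelial and cholangiocyte lists, Pecam1, Stab2 and Krt19 did not overlap, while Lyve1, Kdr and Epcam did. Of all probe sets tested, 14.1% were lower at 24 h without overlap. The hepatocyte markers stood at 15.39 to 15.46 and 15.37 to 15.40. The 3′ to 5′ difference of Gapdh, a sign of RNA quality, was 1.92 to 2.26 at 6 h, highest in TA animal 1, and 1.82 to 2.04 at 24 h. That of actin was larger, at 4.17 to 4.33 at 6 h and 4.29 to 4.36 at 24 h, and was not highest in that animal. Both differences overlapped between the times. The part of these markers in the clock gene differences was not tested. In bulk liver, fewer cells of a type and less RNA per cell cannot be told apart.

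**Figure D3:**
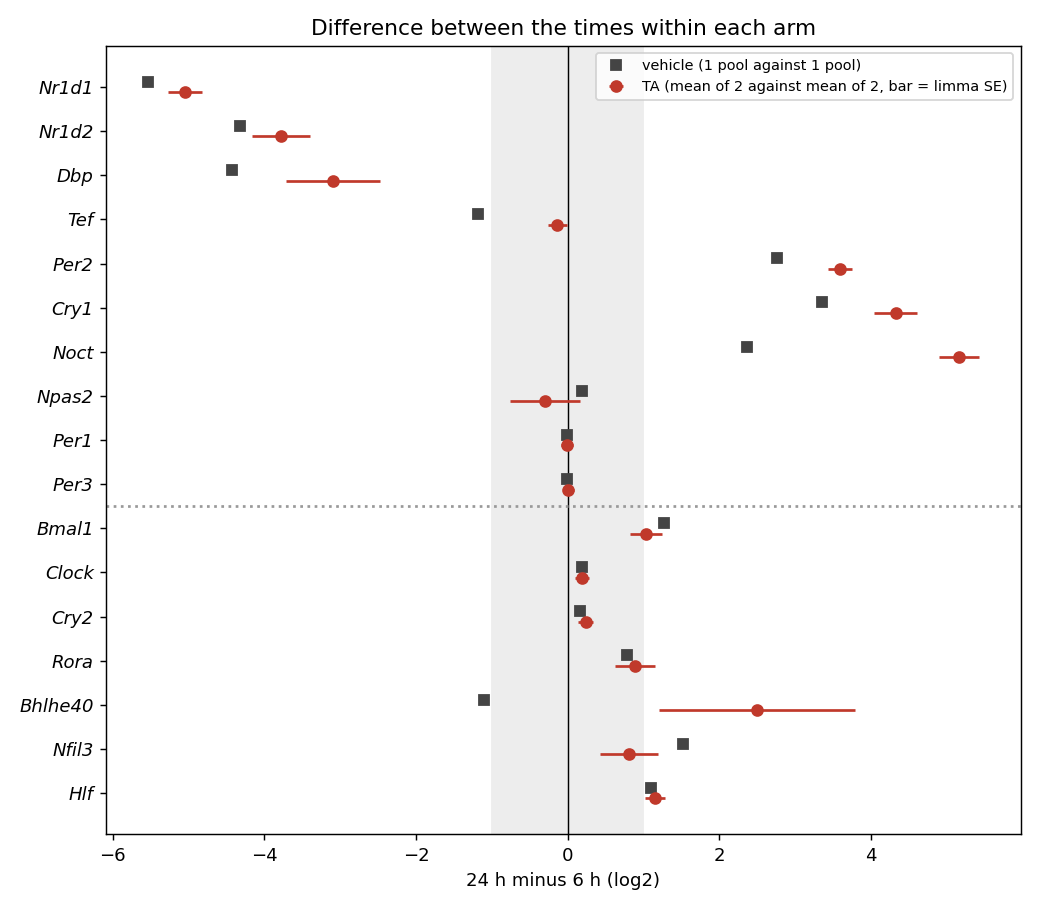
Difference of 24 h from 6 h (log2) within the vehicle arm (squares, 1 pool against 1 pool) and the TA arm (circles, mean of 2 against mean of 2, with limma's SE as bars), for the 10 clock genes above the dotted line and 7 other clock genes below it. The grey band marks less than 2-fold: 6 clock genes lie outside it in both arms, while Tef lies outside it in the vehicle arm only, with no test of that contrast passed.

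Of 22 further genes of the oscillator, 17 had a probe set of their own and 15 passed the filter. By the probe set with the highest mean, 5 of the 15 were higher on every 24 h array than on every 6 h array (10.9% of all probe sets tested) and 2 lower (14.1%). By the same rule, 4 clock probe sets of Per2, Cry1 and Noct were higher and 5 of Nr1d1, Nr1d2, Dbp and Tef lower, where the Tef probe set was not its brightest. None of the 15 passed limma's adjusted test, and 6 genes had an unadjusted limma p under 0.05 for the mean time difference, where 16.8% of all probe sets had one. Bmal1 (listed under its older symbol Arntl), the partner of CLOCK and target of the Nr1d repressors, was at 6.91, 7.50 and 6.97 at 6 h and at 8.18, 8.33 and 8.22 at 24 h. Its mean time difference of 1.15 ± 0.18 (limma adjusted p = 0.16) was thus opposite in sign to that of Nr1d1 and Nr1d2. Rora, a receptor that activates through the same elements, was at 7.31, 6.24 and 6.89 at 6 h and at 8.09, 7.54 and 7.37 at 24 h, a difference of 0.84 ± 0.23.

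Hlf, the relative of Dbp and Tef, was at 7.83, 7.96 and 8.06 at 6 h and 8.93, 9.02 and 9.30 at 24 h, the reverse of the order in Dbp. Its difference was 1.13 ± 0.12 (limma adjusted p = 0.14). Nfil3, the repressor that competes at D-boxes, was at 7.78, 7.80 and 8.43 at 6 h and 9.31, 9.32 and 8.52 at 24 h, a difference of 1.17 ± 0.33. Both were higher at 24 h on every array. Clock, at 10.04 to 10.17 against 10.22 to 10.35, and Cry2, at 7.56 to 7.92 against 7.73 to 8.10, differed by 0.19 ± 0.08 and 0.20 ± 0.08, little beside Cry1. A dimmer Clock probe set, 1389456_at, overlapped, at 7.91 to 8.06 at 6 h and 7.92 to 8.01 at 24 h. Bhlhe40, a repressor at E-boxes, was at 8.43, 4.47 and 7.81 at 6 h and 7.32, 8.16 and 9.11 at 24 h. Its mean difference of 0.69 ± 1.12 rested on TA animal 1 of 6 h and was -0.14 without it. Bhlhe41 lay in the floor at 2.14 to 2.24. The 2 genes lower on every 24 h array were the kinases Csnk1e, near the array medians at 3.35 to 3.40, and Gsk3b, at 7.32 to 7.57 against 6.78 to 6.94.

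Of 13 liver genes known as clock outputs in mouse, 12 passed the filter, of which 5 were higher (10.9% of all probe sets) and 2 lower (14.1%) without overlap. None passed limma's adjusted test, and 4 had an unadjusted limma p under 0.05, where 16.8% of all probe sets had one. Nr1i3, the xenobiotic receptor CAR, was at 6.72, 7.12 and 6.66 at 6 h and at 4.42, 3.67 and 6.24 at 24 h, a mean time difference of -2.12 ± 0.84. Cdkn1a, a cell cycle inhibitor repressed by NR1D1, was at 7.08, 6.69 and 6.50 and then at 7.80, 8.77 and 8.52, a difference of 1.38 ± 0.12. Wee1, a kinase that holds back mitosis, was at 5.16, 4.74 and 4.92 and then at 6.19, 6.42 and 6.71, a difference of 1.38 ± 0.13. Nr1i3 was thus lower at 24 h, with 1 TA animal near the 6 h values. Cdkn1a and Wee1 were higher on every array by their brightest probe set. A dimmer Cdkn1a probe set, 1387391_at, overlapped, at 2.93, 2.89 and 2.93 at 6 h and 3.68, 3.04 and 2.75 at 24 h. Glucocorticoids, which also vary over the day, set many liver genes. Of 5 measured response genes, Tat, an amino acid transaminase, at 9.83 to 10.60 against 11.20 to 11.97, and Sgk1, a kinase, at 8.32 to 9.84 against 10.30 to 11.61, did not overlap (10.9% of all probe sets were higher by this rule), with mean differences of 1.33 ± 0.30 and 1.42 ± 0.42. Tsc22d3, Fkbp5 and the phosphatase Dusp1 overlapped between the times, with 0.33 ± 0.26, -0.33 ± 0.21 and -1.23 ± 0.86. None of the 5 passed limma's adjusted test, and 2, Sgk1 and Tat, had an unadjusted limma p under 0.05 (16.8% of all probe sets).

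Likeness of 2 profiles was measured as the root mean square difference over the 6 arrays after centring each on its mean, in log2 units, so that it grows with the range of the profiles. Among the 6 genes separated by time the nearest pairs were Nr1d2 with Dbp and Per2 with Cry1, both at 0.39. Nr1d1 was 0.70 from Nr1d2, and Cry1 was 0.81 from Noct. Of 13745 other probe sets with 1 symbol, those most like Nr1d1 were Mt2A at 1.02, Egr1 at 1.20, Hsd17b2 at 1.29, Mt1 at 1.58 and Serpina7 at 1.60. Those most like Dbp were Egr1 at 0.62, Hsd17b2 at 0.69, Mt2A at 0.98, Mt1 at 1.00 and Adh4 at 1.01, so that 4 genes were in both sets. Hsd17b2, a steroid dehydrogenase, was at 13.67 to 14.02 at 6 h and 11.04 to 11.37 at 24 h, and Egr1, an immediate early factor, at 8.43 to 9.32 and 5.22 to 6.30. The metallothionein Mt2A, at 12.32 to 12.98 and 8.04 to 10.39, was separated by time as well. Those most like Npas2 were Ampd2 at 0.11, Nedd4 at 0.12, Zeb2 at 0.14, Rasal2 at 0.15 and Bmp5 at 0.15. All 5 shared with Npas2 the lowest value in TA animal 1 of 24 h. These likenesses describe 6 arrays and carry no test.

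At 6 h, TA was compared with the vehicle pool of that time. By their brightest probe set, 7 of the 10 clock genes were lower in both TA animals (8 of 13 probe sets, where 36.3% of all probe sets were lower in both). None of the 13 was higher in both (21%), and none was 2-fold apart in both. Of the 7 genes, Noct lay in the floor on all 3 arrays of 6 h, so its sign there carries no reading. Both animals were set against the same pool, so the same sign in both is not independent evidence. The median TA difference of the 10 genes was -0.53, against -0.02 over all probe sets.

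Tef, at 8.19 and 7.96 against 8.89, gave the smallest p, with a TA difference of -0.82 ± 0.15 (limma adjusted p = 0.76). Per2, at 5.0 and 5.27 against 5.72, gave -0.59 ± 0.20 (limma adjusted p = 0.85). Both values are of the brightest probe set. On their other tested probe sets the TA animals lay on either side of the pool. They were at 0.58 and -0.35 from it for Tef (1390819_at) and at 0.78 and -0.65 for Per2 (1378560_at). These 2 genes were the only clock genes with an unadjusted limma p under 0.05, a share to be read against 5.84% of all probe sets. Dbp differed by -1.19 ± 0.76, Cry1 by -0.85 ± 0.34, Nr1d2 by -0.57 ± 0.47 and Nr1d1 by -0.49 ± 0.27, with limma adjusted p from 0.89 to 1.00. Npas2 was on either side of its pool. Limma called no probe set at all at 6 h after adjustment.

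The 6 h comparison spanned both fluidics runs, and within the first run only TA animal 1 can be set against the pool. There the differences were -0.71 for Tef, -0.72 for Per2, -1.21 for Cry1, -0.71 for Dbp, -0.48 for Nr1d2 and -0.21 for Nr1d1. This animal is 1 of the 2 by which the genes were counted, so the signs were fixed by that count and only the sizes are added. The genes lower with TA at 6 h include both genes that were lower and genes that were higher at 24 h. The TA and time differences both use the vehicle pool of 6 h, and a link between them was not tested.

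**Figure D4:**
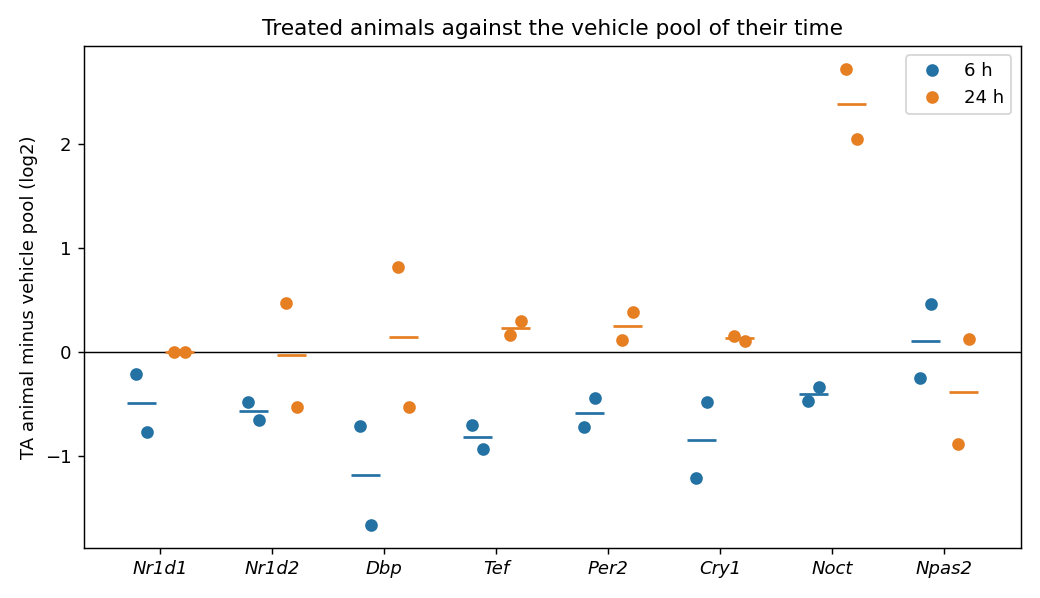
Difference (log2) of each TA animal from the vehicle pool of its time, for the 8 clock genes whose values varied, with a line at the mean of the 2 animals. Each gene is shown by its brightest probe set. At 6 h both animals lie below 0 for every gene but Npas2. At 24 h the animals of Nr1d2, Dbp and Npas2 lie on either side of 0. Those of Per2, Cry1 and Tef lie above it by at most 0.38, and Nr1d1 lies in the floor. Both Noct animals lie more than 2 above their pool.

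At 24 h, with all 3 arrays in 1 run, 4 clock genes were above the vehicle pool in both TA animals, Per2, Cry1, Tef and Noct (5 of 13 probe sets, where 24.6% of all probe sets were above in both). By the same count 3 were below in both (36.8%), all by under 0.02 and in or near the floor, Nr1d1, Per1 and Per3. At least 2-fold above in both animals were 2 clock probe sets (0.236%), that of Noct and the dimmer one of Per2. Noct, at 7.74 and 7.06 against 5.02, had a TA difference of 2.38 ± 0.33 (5.22-fold; limma adjusted p = 0.90). It was the only clock gene with an unadjusted limma p under 0.05 there, and 5.28% of all probe sets had one.

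For the other clock genes outside the floor, the mean of the TA animals on the brightest probe set lay within 0.38 of the pool at 24 h, while single animals lay further away. The animals of Dbp were at 0.81 and -0.53 from it, and TA animal 1 was at -0.89 for Npas2. Per2 differed by 0.25 ± 0.20 on its brightest probe set, while 1378560_at was at 6.22 and 6.37 against 4.84, so its probe sets disagreed in size. Cry1 differed by 0.13 ± 0.34, Tef by 0.23 ± 0.15, Dbp by 0.14 ± 0.76, Nr1d2 by -0.03 ± 0.47 and Npas2 by -0.38 ± 0.57 (limma adjusted p = 1.00 for each). Nr1d1 lay in the floor on all 3 arrays, where no difference can be read. The median TA difference of the 10 genes was 0.06, against -0.01 over all probe sets.

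The difference between the TA effects of the times is also the difference between the time effects of the arms. By the brightest probe set it was 2.79 ± 0.46 for Noct, whose 6 h values lay in the floor. Otherwise it was highest for Dbp at 1.33 ± 1.07, Tef at 1.05 ± 0.21, Cry1 at 0.98 ± 0.49 and Per2 at 0.83 ± 0.28. On 1378560_at of Per2 it was 1.39 ± 0.94, and on 1390819_at of Tef -0.10 ± 0.62. None passed limma's adjusted test, with adjusted p = 1.00 for each, and 3 clock probe sets, of Noct, Tef and Per2, had an unadjusted limma p under 0.05, beside 4.8% of all probe sets. For Nr1d1 it was 0.49 ± 0.39, for Nr1d2 0.54 ± 0.67 and for Npas2 -0.49 ± 0.81.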

How the data were processed

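Liver RNA was measured on 6 Affymetrix rat arrays, 1 vehicle pool and 2 TA animals at each of 2 times. The table deposited by the authors holds log2 values for 31099 probe sets, of which 57 control probe sets were left out. The submitters' processing notes name R 2.0.1, affy 1.5.8, RMA and GCRMA, and the sources used here do not say which of the last pair gave the table. Fluidics runs were inferred from the array settings.

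The platform annotation, which can be old, gives 1 symbol for 20826 probe sets, several for 436 and none for 9780; 20758 symbols were looked up in the RefSeq table and 0 changed. Probe sets above the 40th percentile of the mean (2.82) were kept, 18625 in all. A model of the 4 group means was fitted in R 4.3.3 by limma 3.58.1 (lmFit, eBayes; 2 residual and 1.60 prior degrees of freedom), with Benjamini-Hochberg adjustment over all probe sets and a threshold of 0.05, two-sided. The vehicle pools are assumed to vary like TA arrays, so p-values measure the spread between TA animals. This spread is narrowed by the floor for Nr1d1 and Noct. The fit was tested on simulated data.

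The clock genes, the gene lists and the alternatives were chosen with earlier results of these data known. All clock genes were named; of the further oscillator genes 10 fixed ones where measured, of the outputs the 3 with the largest mean time difference, all glucocorticoid response genes, and the 5 profiles most like Nr1d1, Dbp and Npas2. Csnk1e and Gsk3b are outside this rule and were chosen after their values were seen. Ciart and Zbtb16 had no probe set with their symbol alone, and 1 gene of the lists is not reported here. A gene with several probe sets is counted by its brightest. The alternatives covered the filter, normalization, prior, model, fluidics run, a replicate block and leaving out arrays. Promoter sequences are from RefSeq (GRCr8).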

Additional observations from a re-analysis of the deposited data

Results flagged for a closer look

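By the brightest probe set, 4 clock genes had both TA animals below the vehicle pool at 6 h and both above it at 24 h. The sign of the TA difference thus turned between the times on these probe sets. The other tested probe sets of Per2 and Tef had no such turn. At 6 h their TA animals lay at 0.78 and -0.65 from the pool for Per2 (1378560_at) and at 0.58 and -0.35 for Tef (1390819_at). For Noct the 6 h values lay in the floor, and its sign at 6 h carries no reading. The difference of the 2 TA differences was 0.83 ± 0.28 (SE) for Per2, 0.98 ± 0.49 for Cry1, 1.05 ± 0.21 for Tef and 2.79 ± 0.46 for Noct. None passed the test of the difference itself (limma adjusted p = 1.00 for each). Noct combined 2.17 and 2.31 against 2.65 at 6 h with 7.74 and 7.06 against 5.02 at 24 h. Tef combined 8.19 and 7.96 against 8.89 with 7.87 and 8.0 against 7.71, so that it was the vehicle pools that differed most between the times. At each time both animals share 1 pool, and the part of the pools in these values was not tested.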

How the results depend on the processing

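The counts of 3 clock genes at least 2-fold higher and 3 at least 2-fold lower on every 24 h array stayed at 3 with array medians centred, without each TA array in turn and within the second fluidics run, which were chosen after seeing the data. Leaving out arrays can only relax this rule, and array medians differed little, so these counts are no check on it. Over the values of single genes, 946 kept their direction and side of the threshold under the alternatives, 56 turned in sign and 7 passed the threshold. Nr1d1 passed in the additive model (-5.21, limma adjusted p = 0.042), which carries no reading, since all its 24 h values lay in the floor. In that model the vehicle, TA and mean time differences are 1 value. The rest were mean time differences without TA animal 1 or 2 of 24 h, for Nr1d2 (-4.30 and -3.80) and Noct (3.60 and 3.93). In those fits the only replicates were the TA animals of 6 h. For Noct these lay in the floor, so its passing carries no reading. The number of probe sets called was 0, 1, 1, 0, 1 and 1 for TA at 6 h, TA at 24 h, time in vehicle, time in TA, mean time and the difference of TA effects. With a trended prior it was 2 for TA at 24 h, time in vehicle and mean time, and with the additive model 0 for TA at 24 h and 3 for the time in vehicle, in TA and in the mean. With the fluidics run as a block it was 0 for TA at 24 h, time in vehicle, mean time and the difference of TA effects, with the replicate block 0 for the same 4, and within the second run 0 for TA at 24 h. Leaving out 1 TA array gave 0 to 2 for TA at 24 h, 0 to 1 for time in vehicle, 0 to 4 for mean time and 0 for the difference of TA effects. The main fit does not pair the animals by replicate number, since the rats differed between the times. Animal 1 minus animal 2 at 6 h correlated with the same at 24 h at -0.079 across probe sets. This value cannot decide whether the numbers share anything else.

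Signs turned for small differences. For TA at 24 h, Nr1d1 was 0.0026 with quantile normalization, 0.0044 with centred medians and 0.14 with the replicate block, and Nr1d2 was 0.012 with quantile normalization, 0.26 with the replicate block and -0.53 to 0.47 without 1 TA array. The additive model gave -0.17 for Per2, -0.36 for Cry1, -0.52 for Dbp and -0.30 for Tef at 24 h and 0.99 for Noct at 6 h, since it holds 1 TA difference for both times. Cry1 at 24 h was -0.039 with the replicate block and Dbp -0.53 to 0.81 without 1 TA array. Npas2 for TA at 6 h was -0.14 in the additive model, -0.25 with the run block, -0.33 with the replicate block and -0.25 to 0.46 without 1 TA array, and -0.89 to 0.12 for TA at 24 h. Its time difference was -0.14 in the additive model and -0.52 with the run block in vehicle, and without 1 TA array -0.80 to 0.21 in TA, -0.31 to 0.20 in the mean and -0.99 to 0.016 for the difference of TA effects. The mean time difference of Bhlhe40 was -1.81 with the run block and -0.14 to 1.53 without 1 TA array. Per1 and Per3 lay near the floor, and no difference is read from them. With quantile normalization Per1 was 0.0029 for TA at 24 h and 0.0061, 0.010, 0.0081 and 0.0040 for time in vehicle, time in TA, mean time and the difference of TA effects, with centred medians 0.0075, 0.011, 0.0093 and 0.0037 for the last 4, and 0.017 for the last with the run block. Without 1 TA array Per1 ran from -0.028 to 0.0089 for TA at 6 h, -0.024 to 0.013 for time in TA, -0.014 to 0.0044 for mean time and -0.020 to 0.017 for the difference. Per3 was 0.0029 for TA at 24 h with centred medians, 0.0078, 0.0086 and 0.0067 for time in vehicle with quantile normalization, centred medians and the additive model, -0.018 for time in TA with the run block and within the second run, -0.049 with the mean of its probe sets, and for mean time -0.039 with the run block and -0.092 with the mean of its probe sets. Without 1 TA array Per3 ran from -0.049 to 0.0082 for TA at 6 h, -0.018 to 0.040 for time in TA, -0.010 to 0.019 for mean time and -0.015 to 0.043 for the difference. Beyond what is stated, the cause of these turns was not tested. The number of arrays and the floor limit all of these values.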
